A study of Rattus norvegicus with 4 samples.

Results

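The genes described are those of oxidative phosphorylation that are encoded in the nucleus: the subunits of the respiratory chain complexes I to IV and of ATP synthase (complex V). They were picked by a rule on names, set with earlier results of these data known. The rule took the gene probes of the array whose gene name begins with Ndufa, Ndufb, Ndufc, Ndufs, Ndufv, Uqcr, Cox4 to Cox8 or Atp5, or is Sdha, Sdhb, Sdhc or Sdhd. The brightest probe stood for each gene. The rule found 71 genes, with 81 probes, among the 35561 gene names of the array. All 71 were among the 25534 genes tested. They comprised 32 genes of complex I, 4 of complex II, 5 of complex III, 16 of complex IV and 14 of complex V.

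The cells were hepatic stellate cells of the rat, the vitamin A-storing pericytes of the liver sinusoid, which turn into matrix-producing myofibroblasts in injured liver. They were left untreated, or received an siRNA against endoglin, a co-receptor of the TGF-beta family, or a control siRNA. Each of 4 arrays, all on 1 slide, paired a test RNA in Cy5 (untreated or endoglin siRNA) with RNA of control siRNA cells in Cy3. In both groups of 2 arrays, 1 array held RNA from 1 animal and the other RNA pooled from 3 animals. For the strain and age of the rats, the time after transfection and the days in culture, the sources used here give nothing. They also leave unstated whether the single animal was part of the pool and whether arrays shared a control RNA, so the p-values measure only the spread between these arrays. Since no dyes were swapped, a difference from control siRNA cells and a dye effect of the single probe cannot be told apart in either comparison with control siRNA; both groups were in Cy5 when set against each other.

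Oxidative phosphorylation is the last stage of aerobic energy production. Complex I takes electrons from NADH and complex II from succinate, complex III passes them from ubiquinol to cytochrome c, and complex IV hands them to oxygen. The proton gradient built up by complexes I, III and IV drives ATP synthase. The activation of stellate cells is known to go along with more glycolysis. Apart from complex II, the complexes draw subunits from both genomes, and the mitochondrially encoded ones do not belong to the group described here.

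Probes of the members were bright. Of the 71 members, 70 were well above background in both dyes on every array, and 1 was so in Cy5 on 4 arrays and in Cy3 on 2. The median brightness was 13.57 on the log2 scale for the members and 8.53 for all genes, and 68 members lay above the latter value. This matters because the log2 ratios were corrected for their dependence on brightness. With each array centred on its median in place of that correction, the members' median ratio of endoglin siRNA to control siRNA was 1.28 and that of all genes 0.32.

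The siRNA target changed as labelled. The log2 ratio of endoglin (Eng) to control siRNA cells was -3.08 on the endoglin siRNA array of 1 animal and -1.72 on that of the pool, against -0.36 and -0.42 on the untreated arrays. The mean of the 2 arrays, -2.40 ± 0.26, passed the test (limma, adjusted p = 0.0051). Each ± value here and below is the SE of the limma fit. It rests on a spread estimated from all 4 arrays and drawn toward that of other genes. The SE is therefore not the spread of the 2 arrays shown. The authors' deposited value table gives both untreated arrays the opposite sign, and every direction here follows the dyes in the labels. All 14 listed stellate cell markers were among the genes tested, as were 10 of 11 macrophage, 7 of 10 hepatocyte, 6 of 8 endothelial and 4 of 6 cholangiocyte markers. The median log2 ratio of endoglin siRNA to control siRNA was 0.23 for the stellate cell markers, 0.092 for those of macrophages, 0.078 for those of hepatocytes, 0.084 for those of endothelial cells and -0.36 for those of cholangiocytes. Single markers passed in both directions. Of the stellate cell markers, 5 were higher, among them Cygb (0.76), Col3a1 (0.72) and Pdgfra (0.62), and 2 were lower (Col1a1 -0.89 and Des -0.61). In the other lists Kdr (0.87) of endothelial cells, Cd14 (0.55) of macrophages and Cyp2e1 (0.48) of hepatocytes were higher. Of the cholangiocyte list, Sox9 (-1.09) and Spp1 (-0.49) were lower. Its other markers tested, Krt7 (0.33 for 1 animal and -0.77 for the pool) and Cftr (mean 0.049), did not pass. The part of the markers in the ratios of the members was not tested, and fewer cells of a type cannot be told apart from less RNA per cell.

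Cells with the endoglin siRNA were first set against cells with the control siRNA, to see which transcripts differ once endoglin is reduced. Most members stayed close to the control. A log2 ratio within 0.5 of 0, which is a 1.41-fold difference, was found for 70 of 71 members (98.6%) and for 97.3% of all genes. The members ranged from -0.34 (Uqcrc1) to 0.80 (Cox8h). At an adjusted p under 0.05, 8 members were higher than in control siRNA cells, where 5.25% of all genes were higher, and 1 member was lower, where 2.87% were; in either direction 8.12% of all genes passed. The share of members that were higher was 11.3%, and the median log2 ratio was 0.086 for the members and 0.023 for all genes. Both arrays gave a positive ratio for 44 members, both gave a negative ratio for 14, and the arrays differed in sign for 13. The array of 1 animal had a median of 0.053 and the pooled array one of 0.13. These calls depended on the processing and on single arrays: 0 members and 0 of all genes passed with the log ratios of the scanner software, with median centring or with scaling between arrays. The numbers of members at an unadjusted p under 0.05 were then 9, 55 and 1, against 24 with the main processing. With the main processing, 5888 of the 25534 genes tested were at that level. Leaving out any 1 of the 4 arrays left 1 or 2 of the 9 calls.

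**Figure D1:**
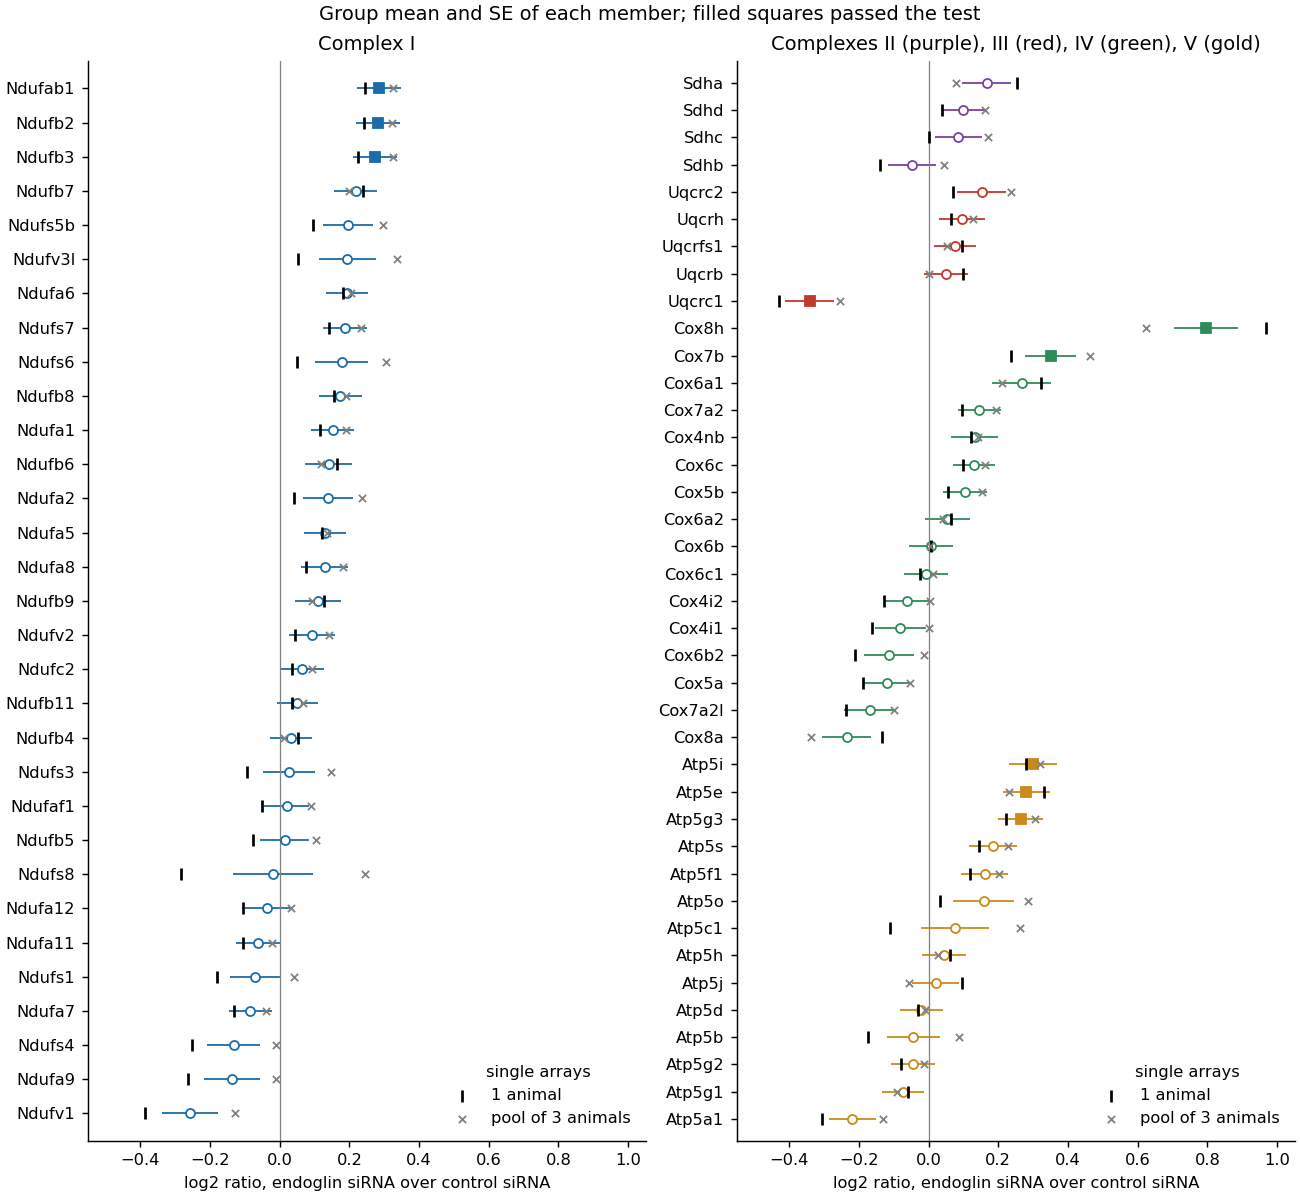
Log2 ratio of endoglin siRNA to control siRNA cells for 70 of the 71 members, complex I on the left and complexes II to V on the right. Squares or circles are means of 2 arrays with the SE of the limma fit, and filled squares passed the test (limma, adjusted p under 0.05). Black bars are the array of 1 animal and grey crosses that of the pool. Cox8h lies at 0.80, and the other members lie between -0.34 and 0.35.

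The member that differed most was Cox8h, the present Cox8b, the isoform of the smallest complex IV subunit that is typical of heart and skeletal muscle. Its log2 ratio to control siRNA was 0.97 for 1 animal and 0.62 for the pool after endoglin siRNA, and 0.40 and 0.25 in untreated cells. The endoglin siRNA arrays both lay above the untreated arrays, and all 4 ratios were above 0. The mean after endoglin siRNA was 0.80 ± 0.091, or 1.74-fold, with an adjusted p of 0.0057 (limma). The ratio was 1.26 with the log ratios of the scanner software. The other probes of Cox8h, which were dim (mean log2 intensity 7.75 and 7.61), gave 0.096 and -0.037. Their coordinates run opposite to those of the brightest probe, so whether they read the same transcript is not known. With them included, the mean over all probes was 0.29 (limma, adjusted p = 0.043). Against untreated cells the difference of the brightest probe, 0.47 ± 0.13, did not pass (limma, adjusted p = 0.35). It was 0.57 between the arrays of 1 animal and 0.37 between the pools. Without the endoglin siRNA pool that difference was 0.64 and passed (adjusted p = 0.040). Cox8a, the isoform found in most tissues, had negative ratios on all 4 arrays: -0.13 and -0.34 after endoglin siRNA, and -0.16 and -0.21 in untreated cells. The groups overlapped, and its mean after endoglin siRNA, -0.24 ± 0.071, did not pass (adjusted p = 0.094).

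Cox7b, a small nuclear subunit of complex IV, was the other member of that complex to pass. It read 0.24 (1 animal) and 0.46 (pool) after endoglin siRNA and 0.25 and 0.34 in untreated cells, so that the groups overlapped. The mean was 0.35 ± 0.074 (adjusted p = 0.033). In complex III the single call was Uqcrc1, core protein 1, which stabilises the matrix side of the complex. It was lower than in control siRNA cells, at -0.43 and -0.25 after endoglin siRNA, with -0.29 and -0.41 in untreated cells. All 4 arrays were below 0 and the groups overlapped. The mean after endoglin siRNA was -0.34 ± 0.071, a 1.27-fold lower level (adjusted p = 0.031), and the difference from untreated cells was 0.0070 (adjusted p = 0.997). The Uqcrc1 ratio was -0.52 with the log ratios of the scanner software, and its sign turned to 0.48 with median centring.

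In complex V, 3 members were higher than in control siRNA cells. Atp5i (present Atp5me) encodes subunit e, which takes part in the pairing of ATP synthases. It read 0.28 (1 animal) and 0.32 (pool) after endoglin siRNA and 0.27 and 0.46 in untreated cells, with a mean of 0.30 ± 0.069 after endoglin siRNA (adjusted p = 0.043). Atp5e (present Atp5f1e) encodes the epsilon subunit of the central stalk and read 0.33 and 0.23, against 0.25 and 0.38 in untreated cells (mean 0.28 ± 0.067, adjusted p = 0.047). Atp5g3 (present Atp5mc3) encodes subunit c, which forms the rotating ring in the membrane, and read 0.22 and 0.30, against 0.23 and 0.13 (mean 0.26 ± 0.064, adjusted p = 0.0499). In each of these genes the endoglin siRNA arrays overlapped with the untreated ones. Atp5i was at 0.10 and Atp5e at 0.18 with the log ratios of the scanner software.

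In complex I, 3 accessory subunits were higher. Ndufab1, the mitochondrial acyl carrier protein, which also serves fatty acid and lipoate synthesis, read 0.25 (1 animal) and 0.32 (pool) after endoglin siRNA and 0.20 and 0.15 in untreated cells. Its mean of 0.29 ± 0.062 had an adjusted p of 0.035, and both endoglin siRNA arrays lay above both untreated arrays. Ndufb2 read 0.24 and 0.32, against 0.27 and 0.18 (mean 0.28 ± 0.063, adjusted p = 0.040). Ndufb3 read 0.22 and 0.32, against 0.23 and 0.21 (mean 0.27 ± 0.062, adjusted p = 0.041). Both belong to the membrane arm, and in both the groups overlapped.

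The sequences just before the transcription starts of 4 of these genes are given to show how different the promoters of members that passed can be. They are the 250 bases before the start from RefSeq (assembly GRCr8), written 5′ to 3′ on the strand of the gene, for Uqcrc1 (chr8:118467973-118468222, plus strand), Atp5i (chr14:1464610-1464859, plus strand), Cox7b (chrX:75148786-75149035, plus strand) and Cox8h (chr1:205408274-205408523, minus strand). Capitals mark letters that match a motif listed after them; the last capital of Uqcrc1 begins a match that runs past the start.
Uqcrc1: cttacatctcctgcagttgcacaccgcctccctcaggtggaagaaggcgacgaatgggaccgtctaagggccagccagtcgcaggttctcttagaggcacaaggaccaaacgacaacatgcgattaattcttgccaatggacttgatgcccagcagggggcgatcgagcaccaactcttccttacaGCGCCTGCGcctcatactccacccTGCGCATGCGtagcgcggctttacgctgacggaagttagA
Atp5i: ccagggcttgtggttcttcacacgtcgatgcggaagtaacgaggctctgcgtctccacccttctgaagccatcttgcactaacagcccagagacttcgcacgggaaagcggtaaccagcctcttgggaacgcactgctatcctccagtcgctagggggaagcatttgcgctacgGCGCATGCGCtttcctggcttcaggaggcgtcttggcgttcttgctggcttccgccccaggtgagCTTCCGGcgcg
Cox7b: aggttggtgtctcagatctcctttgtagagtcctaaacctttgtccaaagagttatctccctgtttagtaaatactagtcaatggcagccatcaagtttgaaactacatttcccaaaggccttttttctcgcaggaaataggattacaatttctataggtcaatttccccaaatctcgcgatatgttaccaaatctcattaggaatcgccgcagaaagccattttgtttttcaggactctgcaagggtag
Cox8h: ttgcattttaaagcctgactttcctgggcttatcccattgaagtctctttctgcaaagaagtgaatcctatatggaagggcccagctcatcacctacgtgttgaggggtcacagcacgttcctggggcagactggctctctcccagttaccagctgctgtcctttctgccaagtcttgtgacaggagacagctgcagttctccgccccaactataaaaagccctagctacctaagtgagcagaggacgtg

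Letters of factors known for their link to respiratory genes were searched on both strands of 300 bases, 250 before and 50 after the start. They were TGCGCATGC and the looser GCGCNTGCG for NRF1, which overlap each other, CCGGAAG for GABPA and other ETS factors, AAGATGGCG for YY1 and TCAAGGTCA for ESRRA. A promoter was matched for 62 of the 71 members, and at least 1 of these motifs was found in 37 of them (59.7%), against 16.3% of all 27457 promoters. GCGCNTGCG was in 27.4% of the members' promoters and 6.34% of all, TGCGCATGC in 6.45% and 1.47%, CCGGAAG in 30.7% and 9.22%, AAGATGGCG in 14.5% and 1.93%, and TCAAGGTCA in 3.23% and 0.412%. The members' promoters also held more G and C, with a median of 56.7% against 52.3%. By complex, AAGATGGCG was found in 7 of 29 promoters of complex I and 0 of 12 of complex IV, and GCGCNTGCG in 6 of 13 of complex V and 1 of 12 of complex IV. Of the 9 members that passed, 3 had a match: Uqcrc1, which was lower, and Atp5i and Atp5g3, which were higher. The promoter of Uqcrc1 held 4 matches and that of Atp5i 3, where matches that overlap on the same stretch are each counted. In the promoters of Cox8h, Cox7b, Atp5e, Ndufab1, Ndufb2 and Ndufb3 these letters do not occur. A match describes the sequence and is not a measured binding site.

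The other members of complex I had smaller or less repeatable ratios. The complex had a median of 0.12 over 32 members, with 21 positive and 5 negative on both endoglin siRNA arrays. Among the core subunits, which carry the electrons, Ndufv1, which binds NADH and the flavin, gave -0.39 (1 animal) and -0.13 (pool) after endoglin siRNA and -0.18 and -0.32 in untreated cells. Its mean of -0.26 ± 0.081 did not pass (adjusted p = 0.10). It passed without the endoglin siRNA pool (-0.39, adjusted p = 0.040) and without background correction (-0.34, adjusted p = 0.022). Ndufs1, the largest iron-sulphur subunit, gave -0.18 and 0.041, and its mean of -0.069 did not pass (adjusted p = 0.64). The 7 core subunits had a median of 0.027 with 0 passing, and the 24 accessory subunits one of 0.13 with 3 passing; this split was made after the values were seen, and the difference was not tested.

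Ndufs8, a core subunit with iron-sulphur clusters, showed the widest disagreement in sign between the endoglin siRNA arrays. It gave -0.28 for 1 animal and 0.24 for the pool, with 0.19 and 0.27 in untreated cells. Only the array of 1 animal with endoglin siRNA was below 0. A second probe of Ndufs8 has coordinates that overlap those of the brightest probe, so it is not an independent reading. It was likewise below 0 on that array alone, with -0.17 and 0.25 after endoglin siRNA and 0.17 and 0.21 in untreated cells. The mean of the brightest probe of Ndufs8, -0.019 ± 0.12, did not pass (limma, adjusted p = 0.95), and the second probe had a mean of 0.039.

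The 4 subunits of complex II, which is also the succinate dehydrogenase of the citric acid cycle, all failed to pass. Sdha, the flavoprotein that oxidises succinate, gave 0.25 (1 animal) and 0.079 (pool) after endoglin siRNA and 0.23 and 0.31 in untreated cells. Sdhb, the iron-sulphur subunit, gave -0.14 and 0.044, against -0.054 and -0.091. The membrane anchor Sdhc gave 0.0019 and 0.17, against 0.033 and 0.098. Sdhd, the other anchor, gave 0.038 and 0.16, against -0.11 and -0.11, so that the groups did not overlap; the difference of 0.21 ± 0.090 did not pass (adjusted p = 0.61). The median of the complex was 0.093, and 1 of its 4 members had an unadjusted p under 0.05, as did 5888 of the 25534 genes tested.

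In complex III, apart from Uqcrc1, the members gave positive ratios on both endoglin siRNA arrays, and none passed. Core protein 2, Uqcrc2, which pairs with Uqcrc1 in the complex, gave 0.069 (1 animal) and 0.24 (pool), with -0.015 and 0.10 in untreated cells. The Rieske iron-sulphur protein Uqcrfs1 gave 0.097 and 0.053, with -0.081 and -0.062 in untreated cells. Both of its endoglin siRNA arrays lay above 0 and both untreated arrays below; the difference of 0.15 ± 0.085 did not pass (adjusted p = 0.75). Uqcrh, the hinge protein, gave 0.064 and 0.13, and Uqcrb 0.099 and 0.0021. The other probes of Uqcrb, at -0.11 and 0.14, differed from each other in sign.

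Complex IV had the lowest median, 0.030 over 16 members, and the widest range, from -0.24 (Cox8a) to 0.80 (Cox8h). Subunit 4, which binds ATP, has isoforms for most tissues (Cox4i1) and for lung and low oxygen (Cox4i2). Cox4i1 gave -0.16 (1 animal) and 0.0013 (pool) after endoglin siRNA, and Cox4i2 gave -0.13 and 0.0049. The mean of Cox4i1 was -0.081 and that of Cox4i2 -0.062, and neither passed (adjusted p = 0.59 and 0.65). Cox6a1, of most tissues, gave 0.32 and 0.21, with 0.21 and 0.52 in untreated cells; its mean of 0.27 ± 0.085 did not pass (adjusted p = 0.11), though it passed at 0.33 (adjusted p = 0.023) when 10 spots far below their local background were left out of the background correction. The muscle form Cox6a2 had a mean of 0.054, and the testis form Cox6b2 one of -0.11. Cox5a gave -0.19 and -0.053 after endoglin siRNA and 0.047 and 0.034 in untreated cells, so the groups did not overlap, and the difference of -0.16 ± 0.091 did not pass (adjusted p = 0.74). Cox5b, which binds zinc, had a mean of 0.10 and Cox7a2 one of 0.15 (adjusted p = 0.39 and 0.22). Cox7a2l, a factor that joins complexes III and IV, gave -0.24 and -0.099 after endoglin siRNA, with -0.16 and -0.35 in untreated cells.

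Complex V had a median of 0.060 over 14 members. None of the main subunits of the catalytic head passed. Atp5a1 (alpha) gave -0.31 (1 animal) and -0.13 (pool) after endoglin siRNA, with -0.10 and -0.083 in untreated cells. Its mean of -0.22 ± 0.068 did not pass (adjusted p = 0.10). Atp5b (beta), which makes ATP, gave -0.18 and 0.087, and Atp5c1 (gamma), the turning shaft, -0.11 and 0.26, so both differed in sign between the arrays. In untreated cells Atp5c1 was the member whose arrays differed most in sign, at -0.024 and 0.17. Atp5o, of the outer stalk, gave 0.032 and 0.28, and its mean of 0.16 did not pass (adjusted p = 0.35). Atp5g1 and Atp5g2 encode the same mature subunit c as Atp5g3, and had means of -0.074 and -0.045 (adjusted p = 0.54 and 0.74). A second, dimmer probe of Atp5g2 gave -0.41 after endoglin siRNA and -0.38 in untreated cells. Across the complexes, the 17 subunits set apart as defining ones (such as Ndufv1, Sdha, Uqcrc1, Cox4i1 and Atp5a1) had a median of 0.075 with 0 higher and 1 lower. The other 54 members had a median of 0.10 with 8 higher and 0 lower. Of all genes, 5.25% were higher and 2.87% were lower. Whether the defining subunits differ from the other members was not tested.

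**Figure D2:**
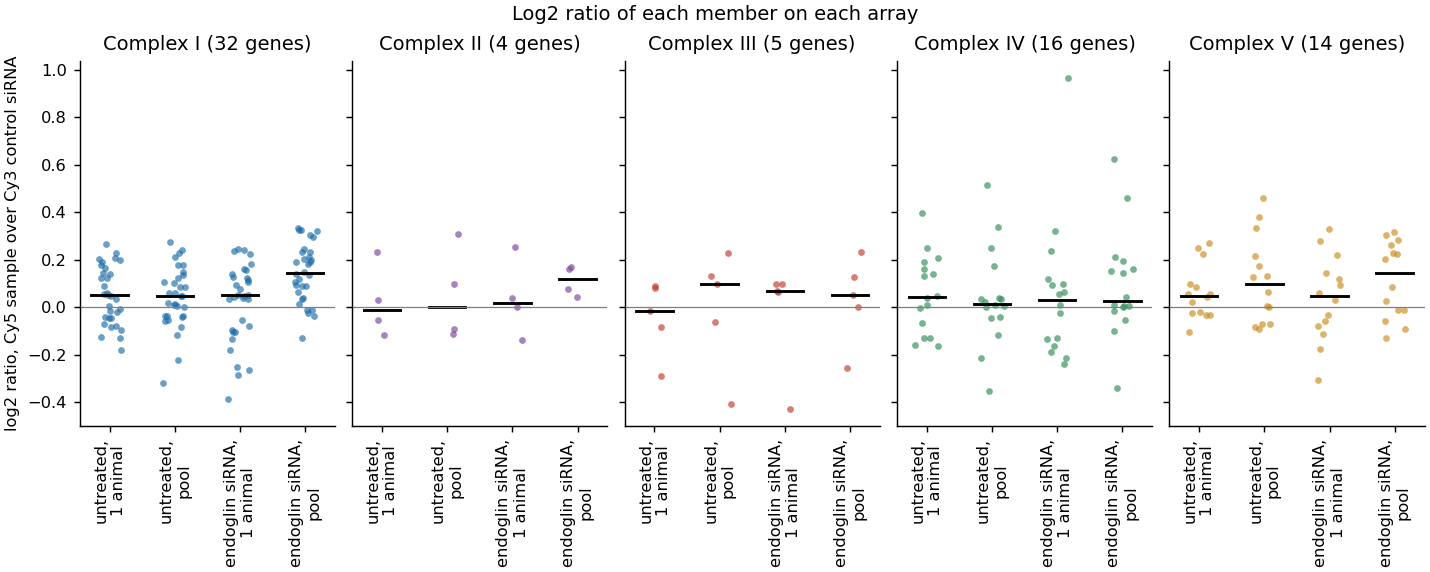
Log2 ratio of the Cy5 sample to Cy3 control siRNA for each member (points) on each of the 4 arrays, by complex, with the median as a bar. The medians of all 5 complexes lie within 0.15 of 0 on each array, and the highest points of complex IV on the endoglin siRNA arrays, 0.97 and 0.62, are Cox8h.

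Some names met the rule without belonging to a complex. Ndufaf1, an assembly factor of complex I, had a mean of 0.020 after endoglin siRNA. Cox4nb (present Emc8), part of a membrane protein complex of the endoplasmic reticulum, was at 0.13, and Atp5s (present Dmac2l) at 0.19. These 3 did not pass (adjusted p = 0.90, 0.31 and 0.16). The probe named Cox6b, which the array file describes as another gene, read 0.0067, and Cox6c1, now named as a pseudogene of Cox6c, -0.0071, so that neither stands for a subunit.

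The comparison of untreated with control siRNA cells asked how cells differ that went through transfection with a control siRNA. Among the members 0 were higher, where 0.435% of all genes were, and 0 were lower, where 0.274% were (0.709% in either direction, limma). At an unadjusted p under 0.05 there were 21 of the 71 members and 3475 of the 25534 genes tested. The ratios ran from -0.35 (Uqcrc1) to 0.37 (Atp5i), with a median of 0.042, against 0.0011 for all genes. Both arrays were positive for 37 members and negative for 18. The lowest adjusted p-values were those of Atp5i (0.37 ± 0.069, adjusted p = 0.070), Uqcrc1 (-0.35 ± 0.071, adjusted p = 0.084) and Atp5e (0.31 ± 0.067, adjusted p = 0.090). Without either endoglin siRNA array, which enter only through the shared estimate of spread, Atp5i, Cox8h and Uqcrc1 passed (adjusted p = 0.039, 0.048 and 0.036). How many of all genes passed in those fits is not given here. Medians were 0.049 in complex I, -0.0036 in complex II, 0.042 in complex III, 0.028 in complex IV and 0.052 in complex V. Markers of macrophages moved in this comparison: all 10 had positive ratios, from 0.16 to 1.70 with a median of 0.63, and Cd68, C1qa, C1qb and Lyz passed. Their part in the ratios of the members was not tested.

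Endoglin siRNA cells were also set against untreated cells, both labelled with Cy5, through their ratios to control siRNA. Here 0 members were higher, where 0.0352% of all genes were, and 0 were lower, where 0.0509% were; 22 genes, or 0.0862%, passed in either direction by limma. At an unadjusted p under 0.05 there were 2 members, Cox8h and Sdhd, and 2101 of the 25534 genes tested. The members ranged from -0.25 (Ndufs8) to 0.47 (Cox8h), with a median of 0.0070, against 0.023 for all genes. The RNA sources differed, with a median of -0.012 between the arrays of 1 animal and 0.080 between the pools, and 41 of the 71 members had differences of opposite sign in them. In complex I the most negative difference of 1 sign in both sources was that of Ndufs8, -0.25 (adjusted p = 0.80), with -0.48 for 1 animal and -0.029 for the pool. The most positive was that of Ndufs6, 0.20 (adjusted p = 0.72), with 0.094 for 1 animal and 0.30 for the pool. In complex V they were those of Atp5s (0.18) and Atp5a1 (-0.12), which did not pass (adjusted p = 0.72 and 0.84). The medians of complexes I to V were 0.031, 0.023, 0.0070, -0.013 and -0.028. Markers of macrophages moved here too: 9 of 10 were negative in both sources, with differences from -2.22 (Lyz, adjusted p = 0.13) to 0.048 (Cd14) and a median of -0.42, and C1qa passed as lower (-1.09, adjusted p = 0.038). Of the cholangiocyte markers Spp1 passed as lower (-1.67, adjusted p = 0.026). Their part in the differences of the members was not tested.

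Other genes of mitochondrial energy metabolism were read from lists of textbook members. After endoglin siRNA, 5 of 29 assembly factors were higher than in control siRNA cells and 0 lower, with a median of 0.13, where 5.25% of all genes were higher and 2.87% lower. They were Nubpl (0.40 ± 0.072, adjusted p = 0.020) and Ndufaf4 (0.37 ± 0.064, adjusted p = 0.018), which serve complex I, Ndufaf6 (0.36), Sdhaf1 (0.35), which serves complex II, and Surf1 (0.34), which serves complex IV. Of the 15 genes for electron carriers, coenzyme Q synthesis and feeders, 2 were higher: Gpd2 (0.28), the mitochondrial glycerol phosphate dehydrogenase, and Etfa (0.25), of the electron transfer flavoprotein. Of 15 regulators of mitochondrial biogenesis, 3 were higher, namely Tfam (0.45 ± 0.070, adjusted p = 0.013), which packs and transcribes mitochondrial DNA, the mitochondrial RNA polymerase Polrmt (0.32) and the coactivator Pprc1 (0.26). Of 61 mitochondrial ribosomal proteins 7 were higher, among them Mrps35 (0.35), Mrpl47 (0.33) and Mrpl55 (0.33), with a median of 0.084 and 0 lower. Most of these calls were lost when 1 array was left out. Without the untreated array of 1 animal, that of the pool, the endoglin siRNA array of 1 animal and that of the pool, the ribosomal proteins called higher numbered 0, 0, 1 and 2, and the assembly factors 3, 3, 1 and 2. In the same order the electron carriers and feeders numbered 0, 0, 1 and 0, and the regulators 1 each time.

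Other lists held calls in the opposite direction, against the 2.87% of all genes that were lower. In the citric acid cycle, 2 of 18 genes were lower, among them citrate synthase Cs (-0.38 ± 0.070, adjusted p = 0.021), with a list median of -0.0019; 1 was lower without either untreated array, and 0 without either endoglin siRNA array. The outer membrane channel Vdac1 was lower (-0.52), 1 of 15 carriers, uncouplers and inhibitors, as were the antioxidants Prdx5 (-0.49) and Gpx4 (-0.34), 2 of 11 chaperones, proteases and antioxidants. Of this last list 1 gene was lower without either untreated array or the endoglin siRNA array of 1 animal. Of the carriers list 2 were lower without the endoglin siRNA array of the pool, and 4 without background correction. Glycolysis held the most calls, with 7 of 19 genes lower, 0 higher and a median of -0.28; 4 were lower without the endoglin siRNA array of 1 animal, and 11 without background correction. Triosephosphate isomerase Tpi1 was at -0.73 (1 animal) and -0.70 (pool) after endoglin siRNA, with -0.26 and -0.34 in untreated cells, and the groups did not overlap. Its mean was -0.72 ± 0.061 (adjusted p = 0.0037), followed by lactate dehydrogenase Ldha (-0.59, adjusted p = 0.0051) and pyruvate kinase Pkm (-0.52, adjusted p = 0.0099). Tpi1, Ldha, Pkm, Cs, Vdac1, Prdx5 and Gpx4 turned positive with median centring. In these lists 0 genes passed in untreated against control siRNA cells, and 0 in endoglin siRNA against untreated cells (limma). At an unadjusted p under 0.05, glycolysis had 8 and 6 of 19 genes, assembly factors 0 and 7 of 29, and regulators 2 and 4 of 15. Of the 25534 genes tested, 3475 and 2101 were at that level. Whether a list differs from the members was not tested.

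**Figure D3:**
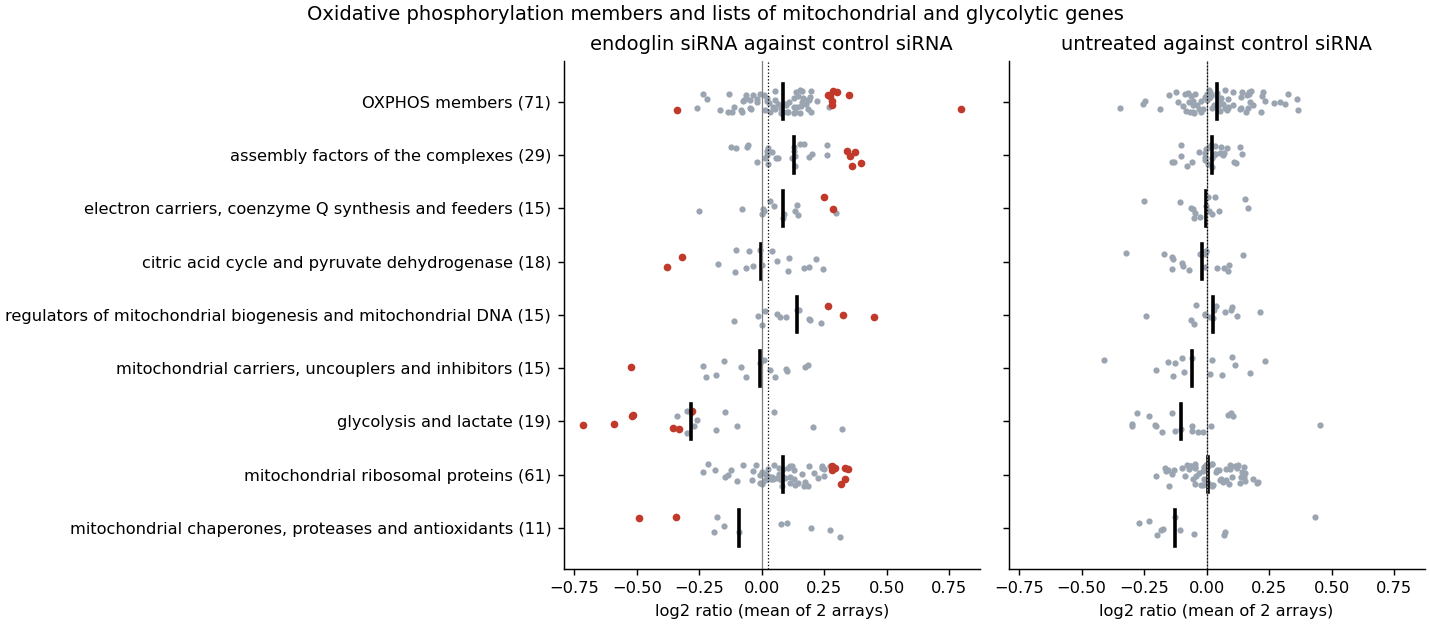
Log2 ratio (mean of 2 arrays) of each oxidative phosphorylation gene (OXPHOS members) and of the genes of 8 lists, with the number of genes in brackets; red points passed the test (limma, adjusted p under 0.05), black bars are medians and the dotted line is the median of all genes. After endoglin siRNA the median of glycolysis is -0.28 and that of the members 0.086; in untreated cells no point is red.

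**Figure D4:**
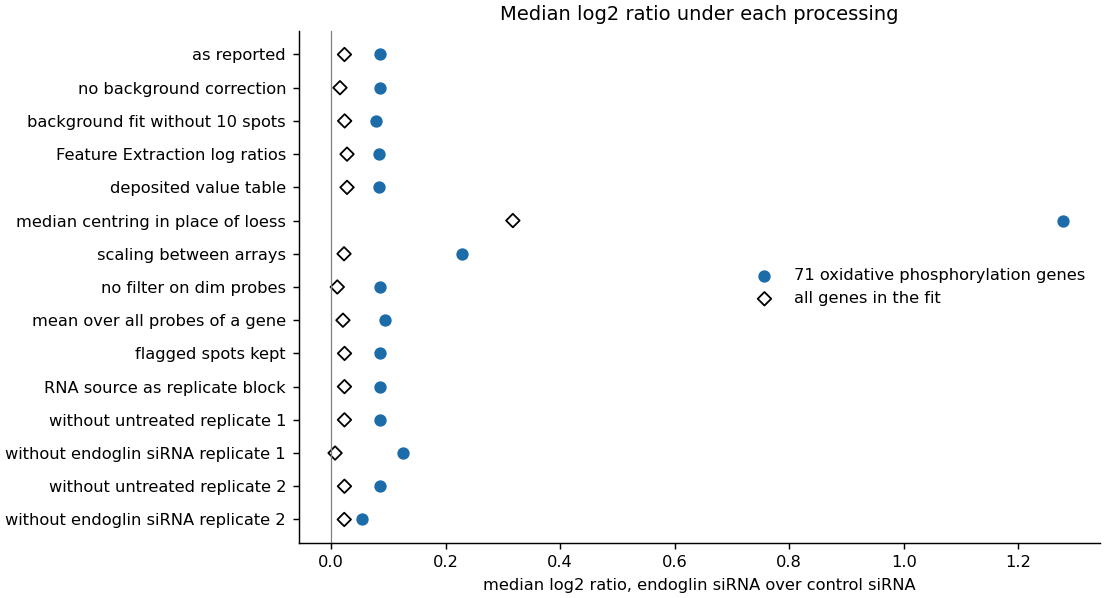
Median log2 ratio of endoglin siRNA to control siRNA for the 71 members (filled circles) and for all genes in the fit (open diamonds) under each processing. The members' median stays between 0.053 and 0.13 except with scaling between arrays (0.23) and with median centring (1.28).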

How the data were processed

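Total RNA of rat hepatic stellate cells was amplified and labelled for 4x44K rat arrays of Agilent, per the labels' protocols. The authors extracted the spots with Agilent Feature Extraction 9.5.1.1; its mean and background signals are intensity values on a linear scale and its log ratios log10 of Cy5 over Cy3, per the file headers. The deposited value table holds log10 ratios, which correlated at -1.00 with those of the scanner files on the untreated arrays and at 1.00 on the others.

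Mean signals were corrected by normexp (offset 50) with the local median background and normalized by loess within each array (limma 3.58.1, R 4.3.3). Flagged and control spots were left out (189 to 289 flagged on each array; 0 saturated). Of 41012 probes, 30021 exceeded background well in 1 or both dyes on at least 2 arrays, 29845 of them had a usable spot on all arrays, and the brightest stood for each of 25534 names. Group means of the 4 arrays were fitted with limma (empirical Bayes; Benjamini-Hochberg over all genes at 0.05). The untreated array of the pool stood apart, with 93.3% of gene spots well above background in Cy5 and 87.2% in Cy3. On the other arrays the share was 61.9% to 70.2% in a dye. The median log2 ratio before loess was 1.57 on that array and 1.09 to 1.14 on the others. Precision is limited by having 2 arrays per group. Scripts were tested on simulated data. Present names came from a RefSeq table (GRCr8): 45 members by accession, 23 by symbol, 3 by synonym. Members and lists were chosen with earlier results of these data known. Named were members that passed (at most 4 per complex and direction), otherwise the extremes of 1 sign on both arrays, the 17 defining subunits, tissue isoforms, the members whose arrays differed most in sign, and list genes that passed (at most 3 per list; further assembly factors were named after their values were seen). The separate values of 1 member and 1 list gene are not reported here. Alternatives were other background corrections, normalizations, filters and probe rules, the scanner software's and the deposited log ratios, the RNA source as a block, and leaving out each array.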

Additional observations from a re-analysis of the deposited data

How the results depend on the processing

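With the scanner software's or the deposited log ratios, with median centring or with scaling between arrays, 0 members were higher and 0 lower after endoglin siRNA than in control siRNA cells. Without background correction, or with 10 spots far below their background left out of its fit, 2 were lower. In these 2 settings as many members were higher as with the main processing, while more of all genes were. With the RNA source as a block, 2 members were lower. Without 1 array, 1 to 2 were higher and 0 to 2 lower; a lone array is assumed to vary like the other group. The median was 1.28 with median centring and 0.23 with scaling. In untreated against control siRNA cells, 5 members were higher and 1 lower with the block. The matching counts over all genes are not given here, so these numbers cannot be set against that background. The members' median was 0.028 with either set of log ratios, 0.20 with median centring, 0.034 with scaling and 0.035 to 0.044 without 1 array. Against untreated cells, 0 to 1 members were higher without 1 array, and the median was 1.03 with median centring, 0.14 with scaling and -0.019 to 0.073 without 1 array.

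Median centring reversed Uqcrc1 (0.48), Cs (0.76), Vdac1 (0.47), Tpi1 (0.47), Ldha (0.64), Pkm2 (0.76), Prdx5 (0.80) and Gpx4 (0.82). The cause was not tested. The 9 members that passed kept their sign in every alternative, except Uqcrc1 with median centring. Over all genes, 1340 were higher and 733 lower after endoglin siRNA than in control siRNA cells. In that comparison the counts were 2373 and 2142 without background correction, 2288 and 1872 with the 10 spots left out, and 2553 and 1411 with the block. The labels do not say that equal sources pair the arrays; with 2 pairs, their deviations from the group means correlated at 0.29. All 71 members were tested in every alternative.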
